A study of Mus musculus with 2 samples.

Results

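Arterial-side capillary endothelial cells carrying Hey1 transcripts were studied in the non-muscle cells of mouse hearts, and 699 of 10427 barcodes (single-cell droplets) met their definition. These members were selected on measured values: a barcode needed at least 500 detected genes and at most 10% mitochondrial UMIs (molecules, each counted once), which 9092 barcodes had. It needed at least 4 UMIs over Pecam1, Cdh5, Egfl7 and Cldn5, more than over Pdgfra, Dcn, Col1a1 and Col3a1 (the endothelial gate), and at least 1 UMI of Hey1 together with UMIs in at least 3 of Cxcl12, Rbp7, Btnl9, Lrrc3b and Adamts5. Barcodes with UMIs in more than 1 of the arterial genes Gja5, Gja4, Sema3g, Stmn2 and Fbln5, or with any Myh11, were left out. The db/+ library held 400 members and the library of db/db mice given 1% salt held 299.

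The control mice were db/+, heterozygous for the db allele of the leptin receptor gene Lepr, and the compared mice were db/db, homozygous for it and given 1% salt by a route the labels do not name. The series title calls the latter an HFpEF model, HFpEF being heart failure in which the ejection fraction is preserved. No library of db/db mice without salt or of db/+ mice with salt is among these samples, so genotype and salt cannot be told apart. The labels give 4 male hearts per genotype, no age and no strain, and do not say whether the hearts were pooled before loading. In both groups the suspension was filtered to remove cardiomyocytes and depleted of CD45+ leukocytes. Each group is 1 library, so no test was possible, no p-value is given, and the 95% intervals (exact Poisson for levels, Clopper-Pearson for shares) cover counting error only.

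Capillaries of the heart run from arterioles to venules, and their endothelial cells change gradually along that path. The arterial end is known for Notch signalling, in which the receptor on one cell is cut after binding a ligand on its neighbour and its inner part joins RBPJ on DNA to switch on Hey1 and related repressors. Capillary endothelium of the heart is also known for carrying fatty acids to the muscle, with GPIHBP1 holding lipoprotein lipase at the vessel wall and CD36 and FABP4 handling the fatty acids.

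Members were sequenced to a median of 6670 UMIs in db/+ and 6180 in db/db and salt, 3689891 and 2650745 UMIs in all. Levels are in CPM, the UMIs of a gene summed over a set of barcodes per 1000000 UMIs of that set, and ratios are log2 of CPM plus 10 over CPM plus 10, which understates the change of low genes. The 8 endothelial genes outside the definition (Tie1, Tek, Kdr, Eng, Emcn, Erg, Esam and Robo4) all had UMIs in both libraries and summed to 4719 and 5466 CPM. The capillary gene Gpihbp1 had a UMI in 99.0 and 99.3% of members, while Gkn3 and Hey2, genes of larger arteries, stood at 0 and 0 CPM and at 0.542 and 1.51 CPM. For Gkn3, 0 UMIs over all members of a library allow up to 0.813 and 1.13 CPM by a limit of 3 counts. Both genes were also rare in arterial barcodes, with Gkn3 in 2.66 and 1.39% and Hey2 in 0.888 and 1.74% at 3000 UMIs, and Hey2 was found in 1.93 and 1.92% of the fibroblast gate. Without thinning, Gpihbp1 had a UMI in 86.1 and 92.8% of arterial barcodes too, so its detection separates the sets little. Scrublet, a doublet caller, marked 64 of 4948 barcodes (1.29%) and 50 of 4144 (1.21%), none of them a member, and doublets were kept. Because 45 db/+ members (11.3%) and 38 members from db/db and salt (12.7%) still held UMIs in at least 3 markers of 1 other cell type, results were also computed without these mixed barcodes. The libraries had 7 barcode sequences in common, none of them a member in both.

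Of the genes that chose the members, Hey1, a Notch-induced transcriptional repressor (chr3:8663359-8667256, minus strand, GRCm38, GENCODE M21), had 754 UMIs in db/+ members (204 CPM, interval 190 to 219) and 596 UMIs in db/db and salt members (225 CPM, interval 207 to 244). Most members, 59.5 and 53.8%, held a single Hey1 UMI, and the highest counts were 10 and 11. At 3000 UMIs per barcode, 3.42 and 2.59% of barcodes in the fibroblast gate (the reverse of the endothelial one) also held a Hey1 UMI, at medians before thinning of 9635.5 and 11993 UMIs. Cxcl12, the chemokine ligand of CXCR4 (chr6:117168535-117181367), was the most abundant of the markers with 2471 and 2829 CPM. Rbp7, a retinol-binding protein (chr4:149449687-149454978), stood at 826 CPM (797 to 856) and 814 CPM (780 to 850). Btnl9, a butyrophilin-like membrane protein, stood at 694 and 681 CPM.

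Lrrc3b and Adamts5 were less evenly matched between the libraries, as a description of values that entered the selection. Lrrc3b, a leucine-rich repeat membrane protein, had a UMI in 38.0% of db/+ members (33.2 to 43.0%) and in 54.2% of db/db and salt members (48.3 to 59.9%), at 62.3 and 99.6 CPM. The same direction stood outside the members, with 33.7 and 76.2 CPM in capillary barcodes without Hey1. Adamts5, a protease that cuts proteoglycans, had a UMI in 31.8 and 33.1% of members, at 59.9 and 86.8 CPM. One db/db and salt barcode held 40 of its 230 UMIs, and without the top barcode of each library the levels were 57.8 and 72.5 CPM. More db/db and salt members held a UMI of 1 arterial gene, 61.2% (55.4 to 66.8%) against 41.8% (36.9 to 46.8%) in db/+. This was carried mostly by Stmn2, found in 86 and 107 members, and Sema3g, found in 48 and 52, while Gja5, the connexin of arteries, was found in 1 member of each library.

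The promoters of the marker genes are shown because Notch acts through RBPJ, whose core binding letters are TGGGAA. RefSeq windows (GRCm38.p6) of 250 bases before to 50 after the start were given for 4 of the 6 markers and searched on both strands for TGGGAA, apart from any other motif. All 4 windows, those of Rbp7, Cxcl12, Btnl9 and Lrrc3b, held the letters, against 28.3% of 27025 genes with a window. The letters were in 15.4% of 13 arterial identity genes, 57.1% of 14 MHC class I genes, 40% of 10 interferon GTPase genes and 33.3% of 15 type I interferon genes. A match is a description of the letters and not a shown binding site. The windows of the 2 markers with the highest levels follow in gene direction, 5′ to 3′, with the match in capitals; Rbp7 lies on the minus strand at chr4:149454919-149455218 and Cxcl12 on the plus strand at chr6:117168285-117168584.
Rbp7: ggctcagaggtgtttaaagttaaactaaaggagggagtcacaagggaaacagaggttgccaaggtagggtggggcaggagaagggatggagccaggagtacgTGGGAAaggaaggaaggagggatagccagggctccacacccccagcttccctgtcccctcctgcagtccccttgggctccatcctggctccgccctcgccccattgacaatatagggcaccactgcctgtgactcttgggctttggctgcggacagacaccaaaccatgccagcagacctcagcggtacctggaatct
Cxcl12: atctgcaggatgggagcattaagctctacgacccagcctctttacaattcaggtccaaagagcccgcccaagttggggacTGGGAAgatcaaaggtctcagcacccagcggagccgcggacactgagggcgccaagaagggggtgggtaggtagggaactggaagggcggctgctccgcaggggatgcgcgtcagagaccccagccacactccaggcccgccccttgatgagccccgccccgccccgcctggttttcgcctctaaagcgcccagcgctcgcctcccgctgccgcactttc

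The share of members in the endothelium differed between the libraries by less than its counting error. Members were 11.8% of 3402 endothelial-gate barcodes in db/+ (10.7 to 12.9%) and 10.6% of 2833 in db/db and salt (9.45 to 11.7%), a log2 ratio of -0.16 with a counting interval of -0.36 to 0.05. Finding a member depends on depth: among barcodes under 3000 UMIs the shares were 6.81 and 4.99%, and from 3000 to 6000 UMIs they were 12.8 and 12.3%. With every barcode thinned to 3000 UMIs the shares were 7.99 and 7.97%. The sign of the difference was not the same in all settings, since the share was higher in db/db and salt when at least 4 of the 5 markers were asked for (5.61 and 5.93%) or at least 2 Hey1 UMIs (4.76 and 4.87%).

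**Figure D1:**
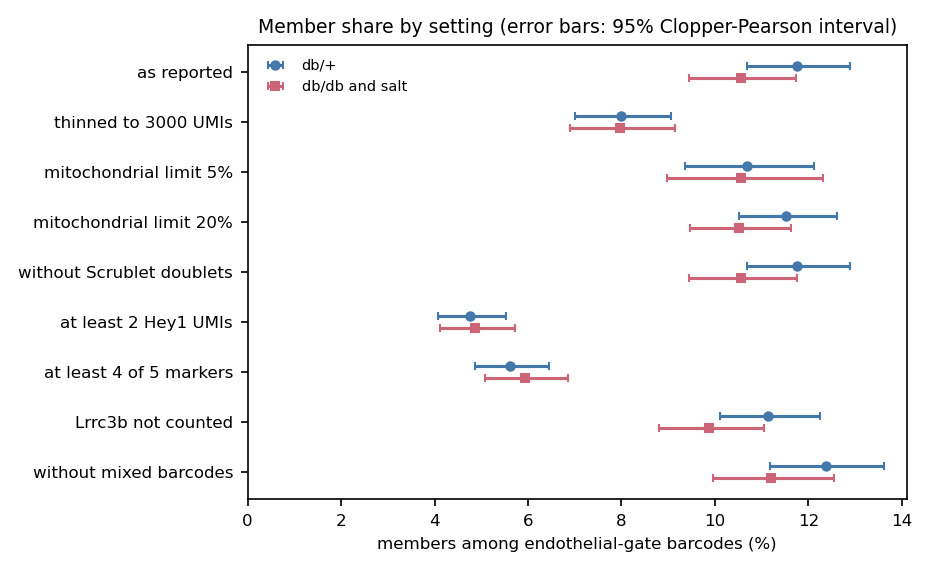
Share of members among endothelial-gate barcodes (x axis, %) under each setting (y axis) in db/+ (circles) and db/db and salt (squares), with 95% Clopper-Pearson intervals. The intervals of the libraries overlap in every setting drawn, from 11.8 and 10.6% as reported to 4.76 and 4.87% with at least 2 Hey1 UMIs.

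Barcodes near the limits of the definition were set beside the members once. Members with exactly 3 markers (209 and 131 barcodes) had 236 and 326 CPM of Efnb2 and 318 and 373 CPM of Car4, and barcodes with Hey1 and exactly 2 markers (67 and 54) had 187 and 306 CPM and 296 and 360 CPM. Members with 1 arterial gene had 311 and 349 CPM of Car4, and barcodes that failed only by having 2 arterial genes (124 and 110) had 203 and 284 CPM. Among members, those with 3 or more Hey1 UMIs had 1164 and 1105 CPM of Rbp7, and those with 1 Hey1 UMI had 691 and 681 CPM. Rbp7 is itself a gene of the definition. Unc5b followed the same order, with 229 and 295 CPM at 3 or more Hey1 UMIs and 163 and 173 CPM at 1. Car4 did not, with 285 and 378 CPM at 3 or more Hey1 UMIs and 358 and 371 CPM at 1. Median depth also differed along this order in db/+, 6019.5 UMIs at 1 Hey1 UMI and 6955 at 3 or more, and in db/db and salt, 5889 and 9253, and its part in it was not tested.

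Set beside capillary barcodes with no Hey1 UMI (1929 and 1611, with UMIs in at least 3 of Car4, Rgcc, Gpihbp1, Cd300lg, Timp4 and Aqp7), members held more Unc5b and Efnb2 and less Nr2f2 and Aqp1. This contrast is close to the one that chose the members, so it is a description. Past 1.5-fold in the same direction in both libraries, 25 of 8194 genes were higher (0.305%) and 34 were lower (0.415%). Unc5b, a netrin receptor that restrains sprouting (chr10:60762593-60831581), stood at 183 CPM in db/+ members and 75.6 CPM in capillary barcodes, and at 217 and 90.4 CPM in db/db and salt, log2 ratios of 1.17 and 1.18. Efnb2, the ephrin that marks arterial endothelium, had 237 against 128 CPM and 338 against 184 CPM. Both genes were thus higher in members of each library, and their Poisson intervals did not overlap those of the capillary barcodes.

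Other genes on that side act in BMP signalling, chemokine response and metabolism. Smad6, an inhibitor of BMP signalling, stood at 54.2 and 59.6 CPM in members and 17.1 and 26.7 CPM in capillary barcodes. Cxcr4, the receptor of the marker Cxcl12, stood at 67.2 and 67.5 CPM in members and 24.9 and 32.2 CPM in capillary barcodes. Alpl (alkaline phosphatase), Glul (glutamine synthetase), St8sia6 (a sialyltransferase), Pcp4l1, Tm6sf1 and Igfbp3 completed the 10 highest, with log2 ratios from 0.77 to 1.30. Of the 14 measured genes of the arterial identity list, 4 were past 1.5-fold higher in both libraries and 1 was lower, with medians of 0.49 and 0.53 against all-gene medians of -0.0085 and 0.0035. Of 15 measured Notch pathway genes 0 were past that fold in both libraries, with medians of 0.0049 and 0.067. Of 7 venous genes 2 were lower and 0 higher, with medians of -0.91 and -0.51. With a pseudocount of 50 CPM, 9 of 38 values of named genes were no longer past 1.5-fold, among them Smad6 and Cxcr4 in db/db and salt (0.52 for each).

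The lowest genes against capillary barcodes included Nr2f2, the transcription factor of venous identity (chr7:70351944-70366735), at 25.2 and 25.3 CPM in members and 89.9 and 88.1 CPM in capillary barcodes, log2 ratios of -1.51 and -1.48. At 3000 UMIs per barcode it was found in 3.37 and 3.64% of members against 17.1 and 13.8% of capillary barcodes. Both shares in members lay below those in the fibroblast gate, 18.3 and 16.3%. Aqp1, a water channel, stood at 851 and 1286 CPM in members and 1515 and 2258 CPM in capillary barcodes. Aplnr, the apelin receptor, stood at 228 and 186 CPM against 380 and 336 CPM. Samd5, Odc1 (polyamine synthesis), Fmo2 (a monooxygenase), Eln (elastin), Prcp (a carboxypeptidase) and Ptgs1 (prostaglandin synthesis) were also among the 10 lowest, with log2 ratios between -1.76 and -0.70. Ptgs1 in db/db and salt was no longer past 1.5-fold, at -0.44, when the comparator was the 925 and 840 barcodes that met every criterion but Hey1.

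Set beside arterial barcodes (388 and 318, with UMIs in at least 3 of the 5 arterial genes), members held less Fn1, Vegfc and Clu and more Car4 and Lpl. Of 8283 genes, 112 were at least 1.5-fold higher in both libraries (1.35%) and 252 were lower (3.04%). Fn1, fibronectin, stood at 45.8 and 56.2 CPM in members and 455 and 560 CPM in arterial barcodes, log2 ratios of -3.06 and -3.10. Vegfc, a growth factor of lymphatic vessels, stood at 23.8 and 47.5 CPM against 266 and 336 CPM, and Clu, clusterin, at 10.0 and 16.6 CPM against 220 and 174 CPM. The other genes among the 10 lowest were Eln, Col8a1 and Htra1 (all secreted to the matrix), Nebl, Amd1, Eps8l2 and Rgs10. Of 17 measured arterial identity genes, 13 were at least 1.5-fold lower in members in both libraries and 0 were higher. Of 14 basement membrane genes 1 was higher and 2 were lower, with medians of 0.37 and 0.27. The arterial set held 12 and 5 barcodes with at least 3 lymphatic markers, and all 40 values of named genes kept their direction and stayed past 1.5-fold without mixed barcodes.

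On the other side of that comparison stood genes of capillaries and lipid uptake. Car4, the carbonic anhydrase of capillary endothelium (chr11:84957786-84966044), stood at 330 and 370 CPM in members and 92.4 and 105 CPM in arterial barcodes, and was near the 304 and 390 CPM of capillary barcodes. Lpl, lipoprotein lipase, stood at 1157 and 1428 CPM in members, 1134 and 1433 CPM in capillary barcodes and 535 and 610 CPM in arterial barcodes. Apln, the ligand of Aplnr, stood at 71.8 and 67.5 CPM against 28.8 and 15.6 CPM in arterial barcodes. Aqp1, Aplnr, Mest, Trp53i11, Dok4, Nav3 and Ift122 were the other 7. Of 13 measured genes of fatty acid uptake, 4 were at least 1.5-fold higher than in arterial barcodes in both libraries, and 0 of 11 were past that fold against capillary barcodes.

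Genes that mark the tips of sprouting vessels were set beside both neighbours. Esm1, a proteoglycan of tip cells and a VEGF-induced gene, stood at 52.0 CPM (44.9 to 59.9) in db/+ members and at 47.2 CPM (39.3 to 56.2) in those of db/db and salt. It stood at 14.3 and 14.6 CPM in capillary barcodes and at 21.2 and 17.2 CPM in arterial ones, so the summed level of members was above both neighbours in each library. Whether few members carried the Esm1 level was not tested. Angpt2, a ligand that loosens vessels, stood at 31.4 and 32.4 CPM in members and 18.2 and 20.4 CPM in capillary barcodes, log2 ratios of 0.55 and 0.48 that are within 1.5-fold. Apln and Adm (adrenomedullin) were not higher than in capillary barcodes, with 71.8 against 98.9 CPM and 60.2 against 69.9 CPM in db/+. Of 9 measured genes of the tip list, Esm1 and Cxcr4 were at least 1.5-fold higher than in capillary barcodes in both libraries and 0 were lower, with list medians of 0.21 and -0.04.

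Along the order from capillary to arterial barcodes, members were set on a scale whose ends their definition fixes in part, since members may hold at most 1 of the arterial genes and must hold Hey1, which capillary barcodes lack. The positions are therefore a description. Of 327 genes at least 1.5-fold higher in arterial than capillary barcodes in both libraries, the member level was between the 2 sets in both libraries for 221 (67.6%), and nearer the capillary level for 256 (78.3%). Of 181 genes lower in arterial barcodes, members lay in between for 127 (70.2%). Both groups of genes were picked from 8317 for a difference between the ends, which by itself favours a level in between. Igfbp3, which binds insulin-like growth factors, showed the order plainly, at 68.8, 149 and 262 CPM in capillary, member and arterial barcodes of db/+ and 173, 301 and 463 CPM in db/db and salt. Mecom, a transcription factor of arterial endothelium, stood at 87.7, 143 and 373 CPM and at 126, 238 and 474 CPM. Sox17, another arterial transcription factor, stood at 119, 178 and 373 CPM and at 118, 190.1 and 369 CPM. Among the genes not in between, Nr2f2 was lower in members than at either end, and so was Eln, named above among the lowest in both comparisons. Vegfc was also lower than both, though its member and capillary intervals overlapped in db/db and salt. The arterial end held 12 and 5 barcodes with at least 3 lymphatic markers, and their part in its Nr2f2 level was not tested.

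**Figure D2:**
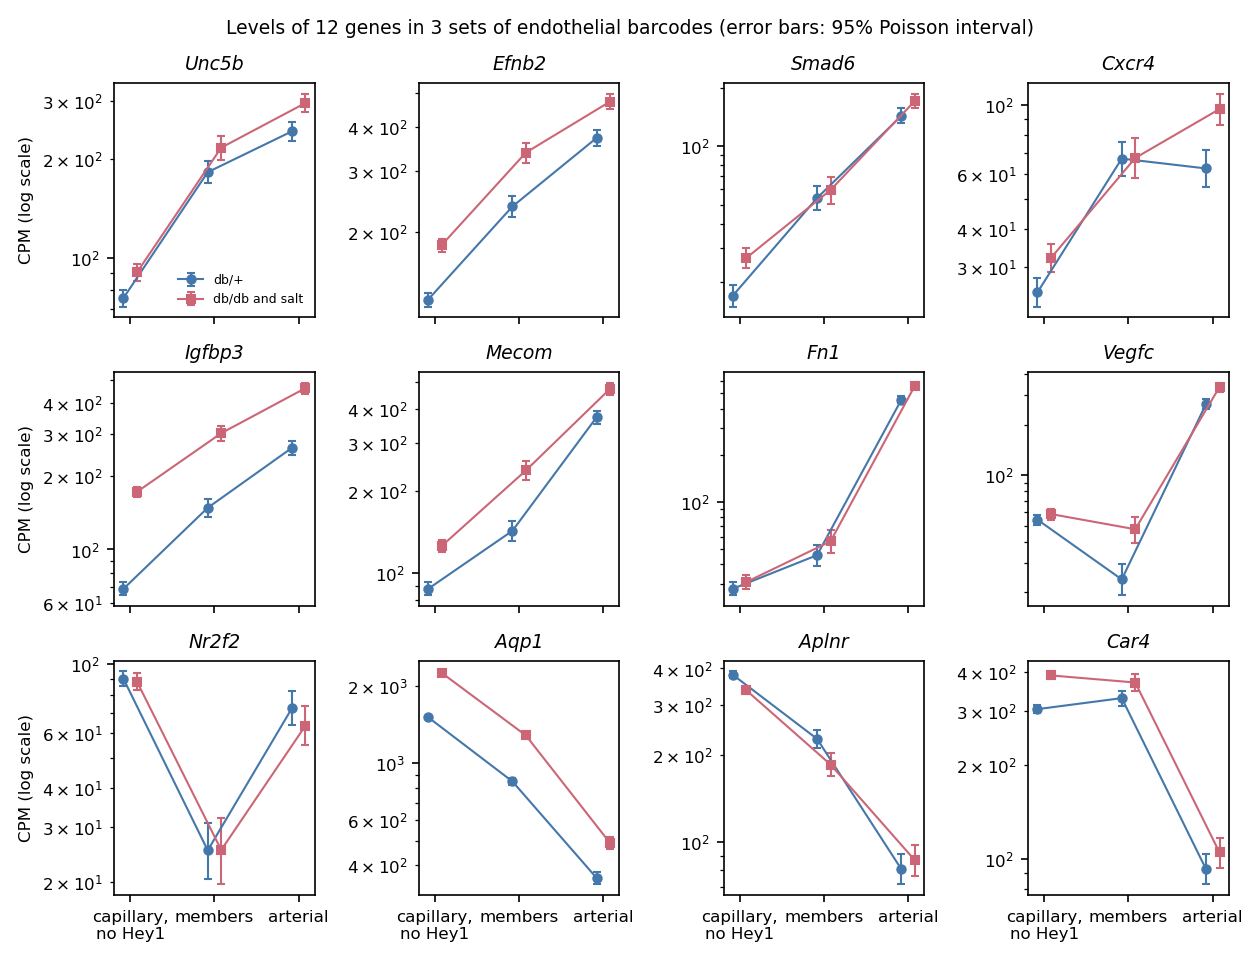
Levels (y axis, CPM on a log scale, with 95% Poisson intervals) of 12 genes in capillary barcodes without Hey1, members and arterial barcodes (x axis) of db/+ (circles) and db/db and salt (squares). Members lie between the other sets for Igfbp3 and Mecom, and below both for Nr2f2 (25.2 and 25.3 CPM) and for Vegfc (23.8 and 47.5 CPM). The arterial set includes 12 and 5 barcodes with at least 3 lymphatic markers.

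The genes that varied most among members were of mixed kinds. With members thinned to 3000 UMIs, the ratio of variance to mean had a median of 1.06 in db/+ and 1.07 in db/db and salt over 4098 genes. It was highest for Malat1, a nuclear RNA, at 19.1 and 29.3, and was 14.7 and 15.3 for Rgs5, a gene of pericytes (the cells that wrap capillaries), and 1 member held 436 of the 1624 Rgs5 UMIs in db/+. It was 8.84 and 15.7 for Mgp, a matrix protein, 8.79 and 7.95 for Fabp4, and 4.41 and 6.71 for Aqp1. AY036118 (a transcript overlapping ribosomal RNA), Actb, Vim, Tmsb4x and Nts were the others of the 10 highest. Rgs5 and Mgp were found in 108 and 82 members and in 80 and 70 members, so their UMIs sat in a minority of barcodes.

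Between the libraries, members of db/db and salt held more of the retinoic acid-degrading enzyme Cyp26b1 and less of nearly all measured interferon-response and MHC class I genes. Of 8172 genes with a mean of at least 10 CPM, 100 were at least 1.5-fold higher in db/db and salt (1.22%) and 149 were lower (1.82%). TMM scaling, which moved the median of all genes from 0.058 to -0.0095 on the log2 scale, gave 71 higher and 186 lower. No replicate shows how far 2 libraries of the same group would differ.

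**Figure D3:**
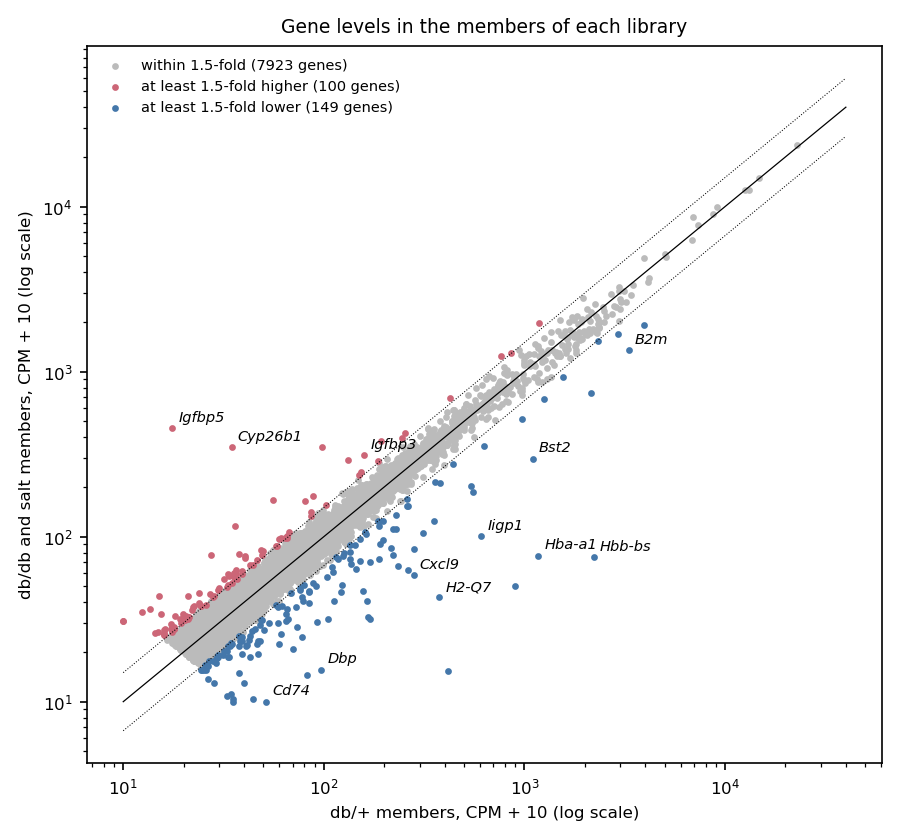
Level of each gene with a mean of at least 10 CPM in db/+ members (x axis) and db/db and salt members (y axis), as CPM plus 10 on log scales, with the line of equality and dotted lines at 1.5-fold. The 8172 genes counted in the text leave out genes of the definition and repeated symbols. Of them, the 100 higher include Cyp26b1 and Igfbp5, and the 149 lower include Iigp1, H2-Q7, Bst2 and Dbp. In db/+, 4 members held 99.7% of the erythroid UMIs behind Hbb-bs and Hba-a1.

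Cyp26b1 (chr6:84571414-84593908, minus strand) had 91 UMIs in db/+ members and 902 in db/db and salt members. Its level of 340 CPM (318 to 363) in the second library against 24.7 CPM (19.9 to 30.3) in the first made a log2 ratio of 3.34. At 3000 UMIs per barcode it was found in 6.18% of db/+ members (3.91 to 9.21%) and 37.5% of db/db and salt members (31.7 to 43.5%), with 0.670 and 3.17% in the fibroblast gate. The gene was thus spread over many members of db/db and salt rather than held by a few. Capillary barcodes went from 51.1 to 459 CPM and arterial barcodes from 10.5 to 137 CPM.

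Other genes of retinoic acid handling differed less. Dhrs3, which reduces retinaldehyde to retinol, stood at 176 and 278 CPM, a log2 ratio of 0.64. The receptor Rarg stood at 77.8 and 106 CPM. The marker Rbp7, a retinol-binding protein, had a log2 ratio of -0.02. Of the 7 measured genes of the list, 2 were past 1.5-fold higher and 0 lower, with a median of 0.41 against 0.058 for all genes, and Dhrs3 was at 0.56 under TMM scaling, no longer past that fold.

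The next highest genes named by rule had log2 ratios from 0.91 to 1.69. Ocel1 stood at 26.0 and 106 CPM, Fbln2, a matrix fibulin, at 122 and 283 CPM, and Igfbp3 at 149 CPM (136 to 161) and 301 CPM (281 to 323). Apoe, an apolipoprotein, stood at 182 and 370 CPM, and Trim37, Fmo2, Ccdc85b and Gsn completed the group. Gsn (30.6 and 66.4 CPM), Apoe and Fbln2 are also abundant in the fibroblast gate, at 19948, 2604 and 1619 CPM in db/+. The 10 fibroblast markers, Gsn among them, summed to 114 and 171 CPM in members, and of those outside the gate both measured ones were at least 1.5-fold higher. Their part in these 3 genes was not tested. Igfbp5, which also binds insulin-like growth factors, had the highest ratio, 7.59 and 444 CPM or 4.69. A single db/db and salt barcode of 31629 UMIs held 1052 of its 1178 UMIs there, and the same barcode held the 40 Adamts5 UMIs and UMIs of all 5 endocardial markers. Without the top barcode of each library the Igfbp5 levels were 5.18 and 48.1 CPM, a log2 ratio of 1.94, and without mixed barcodes the ratio was 0.24.

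Interferon-response genes were lower in db/db and salt members across the list. All 13 measured interferon-induced GTPases, which attack the vacuoles of intracellular microbes, were at least 1.5-fold lower, with a median log2 ratio of -1.62. Iigp1 had 2201 UMIs in db/+ members and 240 in db/db and salt members, or 596 CPM (572 to 622) and 90.5 CPM (79.4 to 103), which made a log2 ratio of -2.59. The level of Igtp (chr11:58199556-58207591) was 156 CPM (144 to 169) and 22.6 CPM (17.3 to 29.1), and Gbp4 and Gbp3, guanylate-binding proteins, had log2 ratios of -2.05 and -1.83. Counted per barcode at 3000 UMIs, 67.7% of db/+ members (62.6 to 72.5%) and 28.7% of db/db and salt members (23.5 to 34.5%) held UMIs in at least 3 of the GTPases. The fibroblast gate had 10.3 and 2.25%. Reads of such near-identical family members as Tgtp1 and Tgtp2 can be assigned to either copy.

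Of 18 measured genes of the type I interferon list, 16 were at least 1.5-fold lower and 0 higher, with a median of -0.98. Bst2, tetherin, which holds budding virus at the membrane, stood at 1088 and 287 CPM and was found in 87.6 and 48.4% of members at 3000 UMIs, against 41.2 and 20.5% of the fibroblast gate. Isg15, a ubiquitin-like modifier, stood at 272 and 74.3 CPM. Irf9, at 83.5 and 71.3 CPM, was within 1.5-fold. The capillary and arterial barcodes of the same libraries had medians of -0.89 and -0.79 on this list and of -1.62 and -1.40 on the GTPases.

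Antigen presentation by MHC class I followed the same direction, with a median of -1.33 and with 13 of 15 measured genes past 1.5-fold. The capillary and arterial barcodes had medians of -1.22 and -1.13 on this list, with 14 of 16 and 13 of 15 genes lower. H2-Q7, a non-classical class I gene, had 1351 UMIs in db/+ members and 87 in db/db and salt members, which are 366 CPM (347 to 386) and 32.8 CPM (26.3 to 40.5) and a log2 ratio of -3.13. The neighbouring H2-Q6 had -2.43, and reads of these closely similar copies may be shared between them. B2m, the light chain of all class I molecules, stood at 3291 and 1344 CPM, H2-K1 at 2140 and 732 CPM, and the peptide transporter Tap1 at 154 and 30.6 CPM. Per member, B2m had a median of 20 UMIs in db/+ and 9 in db/db and salt, with quartiles of 10 to 40.25 and 5 to 15. The lower level was therefore seen over the bulk of members and not in a few barcodes.

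MHC class II transcripts were rare in members of either library. Cd74, the class II invariant chain, had 153 UMIs in 15 members of db/+, 59 of them in 1 barcode, and 0 UMIs in 299 members of db/db and salt, which allows up to 1.13 CPM by the 3-count limit. The db/+ level was 41.5 CPM with that barcode and 25.6 CPM without it. H2-Aa was found at 3000 UMIs in 2.53% of db/+ members (1.16 to 4.74%), 8.28% of capillary barcodes (6.95 to 9.77%) and 9.17% of arterial barcodes (6.32 to 12.8%), with 1.26% in the fibroblast gate. In db/db and salt the shares were 0.364, 0.310 and 1.74%. The interval of db/+ members lay below those of both other endothelial sets and overlapped that of the fibroblast gate (0.739 to 2.02%). The H2-Aa level was 25.2 CPM in db/+ members, or 18.6 CPM without 1 barcode that held 25 of its 93 UMIs, and 8.97 CPM in the db/+ fibroblast gate.

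Of 6 measured chemokine genes 1 was at least 1.5-fold lower in db/db and salt members, Cxcl9, and of 9 adhesion genes 2 were, Vcam1 and Ly6a, with list medians of -0.092 and -0.20. Cxcl9, a T cell-attracting chemokine, stood at 270 CPM (254 to 288) and 48.7 CPM (40.6 to 57.8) in members. Capillary barcodes were above members in both libraries, at 330 and 74.0 CPM, and arterial barcodes were below them, at 61.9 and 16.2 CPM. Vcam1, a leukocyte adhesion molecule, stood at 36.3 and 12.4 CPM, and Ly6a, a surface protein of endothelium, at 2327 and 1530 CPM. With a pseudocount of 50 CPM Vcam1 was at -0.47, within 1.5-fold. Cxcr4, at 67.2 and 67.5 CPM, and the atypical receptor Ackr3, at 122 and 133 CPM, were nearly level, as was the marker Cxcl12.

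The promoters of the interferon-response genes are shown for the letters GAAA, any 2 bases and GAAA again, the core of the interferon-stimulated response element, searched on both strands in the same kind of window. A base could count for this motif and for TGGGAA, since each was searched on its own. Of 10 GTPase genes with a window, 9 held it, of 15 type I interferon genes 6 did, and of 14 MHC class I genes 4 did, against 3.99% of all genes with a window. The arterial identity list, which was not lower in db/db and salt members, held it in 3 of 13 genes (23.1%). Igtp is shown for the GTPases (plus strand, chr11:58199306-58199605) and Ifit1, an RNA-binding antiviral protein with 2 matches, for the type I list (plus strand, chr19:34640639-34640938); Ifit1 stood at 141 and 60.7 CPM in members. Matches are in capitals, and where they begin and end with TTTC the match is on the other strand.
Igtp: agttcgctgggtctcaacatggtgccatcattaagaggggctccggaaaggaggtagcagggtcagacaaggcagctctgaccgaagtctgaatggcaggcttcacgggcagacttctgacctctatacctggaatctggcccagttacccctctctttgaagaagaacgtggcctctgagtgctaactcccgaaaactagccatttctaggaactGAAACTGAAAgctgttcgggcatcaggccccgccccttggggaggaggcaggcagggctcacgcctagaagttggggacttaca
Ifit1: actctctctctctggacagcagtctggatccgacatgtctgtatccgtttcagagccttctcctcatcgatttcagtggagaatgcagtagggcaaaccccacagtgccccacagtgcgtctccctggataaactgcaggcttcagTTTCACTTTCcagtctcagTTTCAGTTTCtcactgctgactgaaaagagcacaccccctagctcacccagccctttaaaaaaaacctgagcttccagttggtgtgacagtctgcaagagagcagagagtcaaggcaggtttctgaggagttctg

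**Figure D4:**
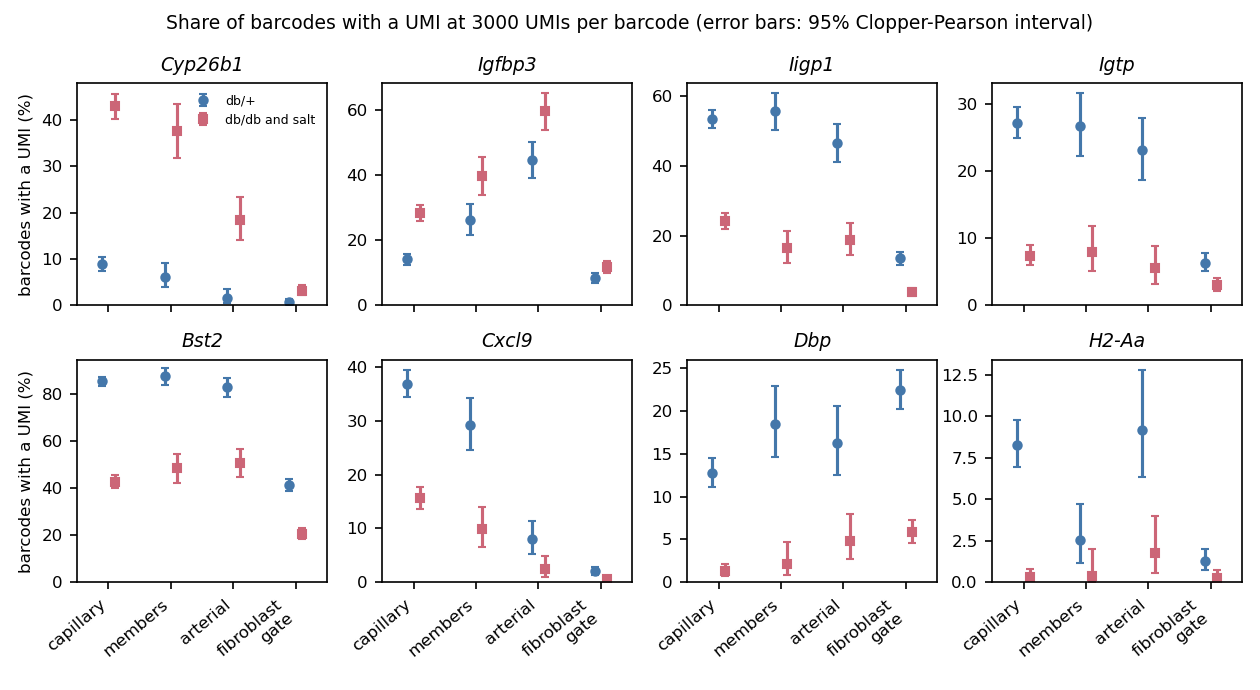
Share of barcodes with a UMI (y axis, %) of 8 genes after thinning to 3000 UMIs per barcode, in capillary, member, arterial and fibroblast-gate barcodes (x axis) of db/+ (circles) and db/db and salt (squares), with 95% Clopper-Pearson intervals. In members Cyp26b1 went from 6.18 to 37.5% and Bst2 from 87.6 to 48.4%, and H2-Aa was found in 2.53% of db/+ members against 8.28% of db/+ capillary barcodes.

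Of the circadian clock, the output genes Dbp and Tef and the repressors Nr1d1 and Nr1d2 were lower in db/db and salt members. The core activators Arntl and Clock were not. Dbp, a clock-driven transcription factor (chr7:45705088-45710203), had 321 UMIs in 131 members of db/+ and 15 UMIs in 13 members of db/db and salt, 87.0 CPM (77.7 to 97.1) and 5.66 CPM (3.17 to 9.33). Nr1d1, a clock repressor, stood at 67.5 and 14.7 CPM, Nr1d2 at 51.0 and 15.8 CPM, and Tef at 36.9 and 9.43 CPM. Of 13 measured clock genes, 5 were at least 1.5-fold lower and 0 higher. Arntl stood at 18.2 and 30.6 CPM, Clock at 72.4 and 98.8 CPM and Per1 at 42.5 and 38.5 CPM. The lower values were not confined to members. Dbp stood at 57.1 and 5.09 CPM in capillary barcodes, 88.9 and 16.9 CPM in arterial barcodes and 119 and 19.5 CPM in the fibroblast gate. Of 12 measured clock genes, 4 were at least 1.5-fold lower in capillary barcodes and 3 of 12 in arterial barcodes, with 0 higher in either. The time of day of tissue collection is not given in the labels, and its part in these values was not tested.

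Notch pathway genes were near level between the libraries. Of 15 measured genes of the pathway other than Hey1, 0 were past 1.5-fold in either direction, with a median of 0.094. The receptors Notch1 and Notch4 stood at 255 and 326 CPM and at 98.9 and 121 CPM. The ligands Dll4 and Jag2 stood at 113 and 140 CPM and at 92.1 and 120 CPM, the target Hes1 at 215 and 227 CPM, and the DNA-binding partner Rbpj at 40.9 and 44.9 CPM. Jag1, at 27.9 and 28.7 CPM, was far below its level in arterial barcodes, 200 and 192 CPM.

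Arterial identity genes had a median of 0.24 in members, with 3 of 15 measured genes at least 1.5-fold higher and 0 lower. With a pseudocount of 50 CPM all 3 were within that fold, with log2 ratios of 0.58, 0.40 and 0.33 for Mecom, Vegfc and Eln. Mecom stood at 143 and 238 CPM, Vegfc at 23.8 and 47.5 CPM and Eln at 8.13 and 23.01 CPM. Efnb2, at 237 and 338 CPM, had a log2 ratio of 0.50. On this list the median was 0.095 in capillary barcodes, 0.10 in arterial barcodes, 0.17 in barcodes that met every criterion but Hey1 and 0.21 in the rest of the endothelial gate. Of the 12 capillary genes 0 were past 1.5-fold, and Gpihbp1, at 2054 and 2136 CPM, and Fabp4, at 22863 and 23731 CPM, were nearly level.

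Genes of proliferation had a median of -0.012 over 8 genes in members, with Mki67 at 56.4 and 55.1 CPM, and this rested on few barcodes. One db/db and salt member held 57 of the 131 Cenpf UMIs, and 1 held 37 of the 80 Cdk1 UMIs. Without the top barcode of each library the log2 ratios were -0.69 for Cenpf, -0.59 for Cdk1, -0.34 for Top2a and 0.30 for Nusap1. In capillary barcodes the median was -0.66 and Mki67 stood at 107 and 57.1 CPM. At 3000 UMIs, 2.53% of db/+ members (1.16 to 4.74%) and 1.45% of db/db and salt members (0.398 to 3.68%) held UMIs in at least 3 of the 8 genes, against 4.40 and 1.70% of capillary barcodes. Few members carried these genes, 11 and 5 before thinning. Among members with at least 2 Hey1 UMIs the list median was -0.96. The difference between the sets was not tested.

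Medians of the further lists ranged from -0.20 for the glucocorticoid list (0 of 8 genes past 1.5-fold) to 0.24 for VEGF and angiopoietin genes (2 of 13 higher, 0 lower). Insulin and IGF genes had a median of 0.17 with 3 of 10 higher, Igfbp5 among them, and coagulation genes 0.20 with 1 of 6 higher, Vwf. Both Igfbp5 and Vwf were within 1.5-fold without mixed barcodes. Fatty acid uptake had a median of 0.054, with 1 of 13 genes lower, Plin2, a lipid droplet protein, at 126 and 63.0 CPM. Basement membrane genes had a median of -0.075 with 1 of 14 lower, Col15a1, at 211 and 101 CPM. Vascular tone genes had a median of 0.029, with Nos3, the endothelial nitric oxide synthase, at 134 and 151 CPM, and Ptgs1 was past 1.5-fold higher, at 11.1 and 34.0 CPM, with a log2 ratio of 1.06 that was 0.46 with a pseudocount of 50 CPM. Respiratory chain, fatty acid oxidation, junction, shear response and unfolded protein lists had 0 genes past 1.5-fold, with medians of 0.20 for junctions and 0.19 for shear response. Of the salt-handling list 1 of 8 genes was, Aqp1, at 851 and 1286 CPM with a log2 ratio of 0.59, or 0.51 under TMM scaling.

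**Figure D5:**
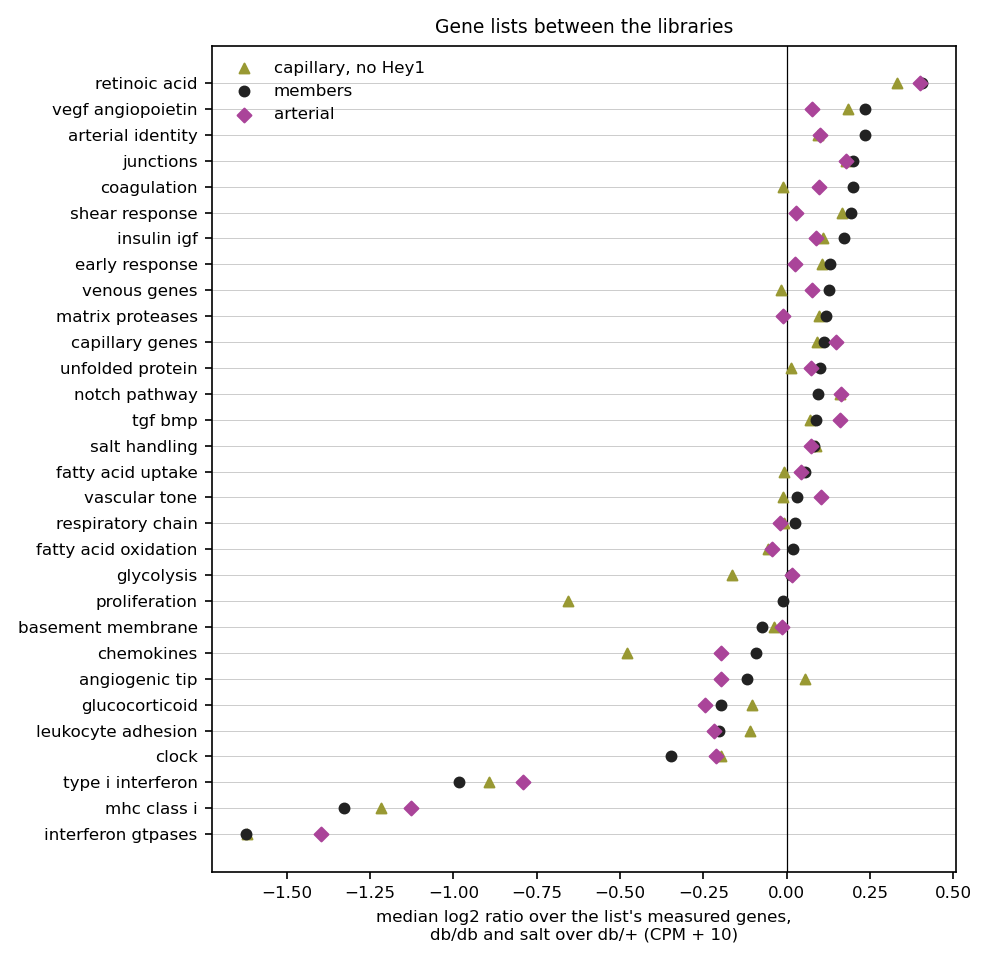
Median log2 ratio of db/db and salt over db/+ (x axis, CPM plus 10) over the measured genes of each pathway list with at least 5 of them (y axis) in capillary barcodes (triangles), members (circles) and arterial barcodes (diamonds). The interferon GTPases (-1.62), MHC class I (-1.33) and type I interferon (-0.98) lists are lowest in members among these pathway lists, and retinoic acid (0.41) is highest.

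Markers of other cell types also moved with the library in members, and their part in the results was not tested. All 7 pericyte markers had UMIs, summed to 631 CPM in db/+ and 416 CPM in db/db and salt, and 4 of 5 measured ones were at least 1.5-fold lower. The 7 cardiomyocyte markers summed to 96.5 and 60.4 CPM, with Nppa at 0 in db/db and salt. The erythroid markers summed to 4668 and 177 CPM, and 4 members held 17167 of the 17226 UMIs in db/+. Leukocyte markers were near 0, with 7.86 and 0.377 CPM and with C1qa and S100a8 at 0 in both libraries. Without mixed barcodes, 113 genes were higher and 155 lower. In that setting Vwf, von Willebrand factor, at 21.7 and 45.6 CPM with all members, had a log2 ratio of 0.05 in place of 0.81.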

How the data were processed

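For each of 2 libraries the authors deposited whole-number UMI counts without normalization, made with Cell Ranger 6.0.2 per the file headers. Cell Ranger, Seurat and GRCm38 (mm10) are named per the submitters' processing notes, with no role for Seurat. Of 31053 gene identifiers, 30934 were matched to GENCODE M21 for coordinates. Members and gene lists were chosen with earlier results of these data known. UMIs were summed per set of barcodes and library. Named genes were the genes of the definition, the 10 highest and 10 lowest per comparison (in the higher library or set, 50 CPM or more, 30 UMIs or more and a UMI in 5% of barcodes), up to 4 per list and the 10 most variable. Other genes of the lists (Esm1, Sox17, B2m and the like) were named after their values were seen. Mitochondrial, ribosomal, haemoglobin, Gm-numbered and Rik genes were left out of these ranks. Thinning kept 356 and 275 members. The calls were also run on simulated Poisson counts. These hold no spread between barcodes or libraries, so they cannot show how far libraries of the same group would differ. Tools were Python 3.11.15, scanpy 1.11.5 (Scrublet) and edgeR 4.0.16 (TMM factors only). A few genes named by the rule are not reported here and are left out of the counts of named genes under alternatives.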

Additional observations from a re-analysis of the deposited data

Results flagged for a closer look

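Igfbp5 stood apart because its ratio of members over capillary barcodes had opposite signs in the libraries, with a log2 value of -1.54 in db/+ and 2.40 in db/db and salt. The difference was not tested, since each group is 1 library. Members held 28 Igfbp5 UMIs in 13 barcodes of db/+ and 1178 UMIs in 22 barcodes of db/db and salt, where 1 barcode held 1052. That barcode had UMIs in 5 of 5 endocardial markers, among them 24 of Cytl1 and 9 of Hapln1, with 9 of Lyve1, 2 of Hey1 and 19 of Rbp7. Without the top barcode of each library the member levels were 5.18 and 48.1 CPM.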

How the results depend on the processing

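No paired analysis was possible because each group is 1 library, and no replicate could be left out for the same reason. The counts of genes at least 1.5-fold higher and lower between the libraries (100 and 149) moved to 18 and 63 with a pseudocount of 50 CPM, 33 and 77 with a mean of at least 50 CPM, 361 and 275 with members thinned to 3000 UMIs, 289 and 241 with at least 2 Hey1 UMIs, 235 higher with a mitochondrial limit of 5%, and 169 higher with the mean of each member's own CPM. The cause was not tested. The thinned, Hey1 and mitochondrial settings hold fewer UMIs per library by construction. The member share was 7.99 and 7.97% after thinning, 10.7% in db/+ at the 5% mitochondrial limit, 4.76 and 4.87% with at least 2 Hey1 UMIs, and 5.61 and 5.93% with at least 4 of 5 markers, a log2 ratio of 0.079. Against capillary barcodes the higher and lower counts (25 and 34) were 5 and 9 with a pseudocount of 50 CPM, 44 and 58 after thinning, and 16 higher against barcodes that met every criterion but Hey1. Against arterial barcodes (112 and 252) they were 39 and 105 with a pseudocount of 50 CPM. Without mixed barcodes, a setting chosen after seeing the data, as was leaving out the top barcode of a gene, 143 of 154 genes compared between the libraries kept their direction and their side of 1.5-fold, 4 were no longer past it and 7 came past it. Removing Scrublet doublets left all named values on their side of 1.5-fold. It could not change member levels, since 0 members and 1 endothelial-gate barcode per library were marked.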
